A study of Mus musculus with 23 samples.

Results

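The endoplasmic reticulum (ER) genes described here are 43 genes for protein folding, translocation into the ER and ER-associated degradation, among 24063 gene symbols in each deposited table. They were chosen by name from known function, and their read counts were compared between 6 groups of mouse plasma cells. All 43 were found in the tables, and all passed the filter on low counts, where the lowest count of any of them in a library was 6. Total RNA came from cells sorted as CD138+B220-, the surface phenotype of plasma cells. The VQ lines, called VQ-D1, VQ-D4, VQ-D2 and VQ-D5, carry 3 elements: the Vκ*MYC transgene, the NrasLSL Q61R/+ allele and IgG1-Cre. In Vκ*MYC mice, MYC is expressed from a transgene under immunoglobulin kappa regulatory elements, and IgG1-Cre removes the stop cassette before the Nras Q61R allele in B cells that have been activated. The line t-VK12653 carries Vκ*MYC alone, and the Control mice carry IgG1-Cre alone. Each tumour line is the progeny of 1 donor, transplanted into recipient mice, and contributed 4 libraries. In replicate order these were bone marrow, spleen, bone marrow and spleen for VQ-D1 and for t-VK12653, and spleen, spleen, lymph node and lymph node for VQ-D2. They were bone marrow, liver, spleen and lymph node for VQ-D4, and bone marrow, bone marrow, lymph node and lymph node for VQ-D5. The 3 Control libraries were all bone marrow. Libraries of a line share a donor, so p-values measure the spread between libraries and not between donors. Some libraries of a line also share a recipient number, and the main tests count them as separate replicates.

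Plasma cells secrete immunoglobulin, and their ER is expanded for that work. The signal recognition particle brings nascent chains to the Sec61 channel, the TRAP complex and signal peptidase act at that channel, and BiP, protein disulfide isomerases and the lectin chaperones fold the chains in the lumen. Chains that do not fold are drawn back through the membrane by the HRD1 ubiquitin ligase complex and degraded. Load in the lumen is read by the sensors IRE1, ATF6 and PERK, whose outputs (spliced XBP1, cleaved ATF6 and ATF4) switch on many of the same genes. This circuit is called the unfolded protein response.

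Total counts ran from 2685579 to 10047314 per library, and levels below are CPM, counts scaled to library size, by edgeR's TMM factors. Myc was at 524 to 694 CPM in VQ-D1, 1247 to 1678 in VQ-D4, 3384 to 3527 in VQ-D2 and 1062 to 1267 in VQ-D5. It was at 6327 to 6902 CPM in t-VK12653, above every VQ library, and at 29.4 to 58.0 CPM in Control. Nras, to which mutant and wild-type alleles both contribute, was at 36.4 to 46.1 CPM in VQ-D1, 48.3 to 52.5 in VQ-D4, 78.2 to 98.6 in VQ-D2, 114 to 139.6 in VQ-D5 and 37.0 to 49.0 in t-VK12653, against 31.4 to 32.8 CPM in Control. Plasma cell markers had reads in every group, except Cd38 in t-VK12653, and their summed level stood lower in the tumours. The 10 plasma cell markers, which include Mzb1, summed to 4433 to 7726 CPM in VQ libraries and 7965 to 15597 CPM in t-VK12653, against 34963 to 64988 CPM in Control. Of Sdc1, Prdm1, Irf4, Tnfrsf17, Xbp1 and Mzb1, none averaged above 2430 CPM in Control, so other markers of the list made up most of that sum. Irf4 did not follow it. Its mean was 2058 CPM in VQ-D1, 2243 in VQ-D4, 1107 in VQ-D2, 1335 in VQ-D5 and 1505 in t-VK12653, against 1253.5 CPM in Control. Sdc1, which encodes CD138, averaged 798 CPM in VQ-D1, 1029.9 in VQ-D4, 331 in VQ-D2, 375 in VQ-D5, 684 in t-VK12653 and 817 in Control. Markers of several other cell types stood higher in Control. The summed level of 12 neutrophil markers, all of them with reads, was 3.67 to 1184 CPM in tumour libraries, with the maximum in VQ-D1 replicate 1, and 3204 to 8841 CPM in Control. The 9 T and NK cell markers summed to at most 3.90 CPM in a tumour library and to 58.8 to 92.1 CPM in Control, and in every tumour line 1 or more of them had no read. Of the 9 erythroid markers, none at 0 in any group, the sum was 1.96 to 57.0 CPM in tumour libraries and 150.1 to 913 CPM in Control. Other markers differed by line. The 9 monocyte and macrophage markers summed to 68.3 to 330 CPM in VQ-D2 and 16.2 to 37.6 CPM in VQ-D5. Both lay below the 465.5 to 1502 CPM of Control, while VQ-D1, VQ-D4 and t-VK12653 lay within it, at 512 to 1465 CPM. The 7 dendritic cell markers summed to 646 to 681 CPM in VQ-D1 and 644 to 868 CPM in t-VK12653, above the 181 to 254.5 CPM of Control. They were below Control in VQ-D2, at 66.5 to 81.3 CPM, and VQ-D5, at 51.5 to 73.5 CPM. VQ-D4 overlapped Control, at 196 to 427 CPM. What part such cells have in the comparisons with Control was not tested, and in bulk RNA fewer cells of a type and less RNA per cell cannot be told apart.

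In TPM, which also scales for transcript length, the chaperones led. Hsp90b1, the ER form of HSP90, had the highest mean level over the 23 libraries at 7239 TPM. Calr followed at 3375 TPM, Pdia4 at 3144 TPM and Hspa5, which encodes BiP, at 2684 TPM. The lowest was Derl2, a channel component of degradation, at 21.4 TPM. Ranking by FPKM moved 6 of the 43 genes, by at most 1 rank. Together the 43 genes held 3.85% to 4.28% of all TPM in VQ-D1, 3.17% to 3.84% in VQ-D4, 3.50% to 5.23% in VQ-D2, 4.71% to 5.06% in VQ-D5 and 2.38% to 2.72% in t-VK12653, against 2.98% to 3.93% in Control. On this scale the t-VK12653 libraries lay below all others, and the VQ-D5 libraries lay above those of VQ-D4, VQ-D1 and Control. In CPM the place of t-VK12653 was not kept. The 43 genes summed to 41234 to 47929.7 CPM in VQ-D1, 36059 to 43640 CPM in VQ-D4, 33536 to 48209 CPM in VQ-D2, 51341 to 55288 CPM in VQ-D5 and 35391 to 43917 CPM in t-VK12653, against 30712 to 40848 CPM in Control, so that t-VK12653 overlapped Control and VQ-D5 lay above all others. Sel1l alone held 8465 to 11345 CPM in t-VK12653 and 1384 to 5905 CPM in VQ libraries, against 1767 to 3442 CPM in Control. The ribosomal precursor Rn45s took 21.2% to 27.3% of counts in t-VK12653 and 16.6% to 21.7% in VQ libraries, against 16.4% to 17.3% in Control. What part either has in the different orders by TPM and CPM was not tested. VQ-D5 had the highest mean CPM of the 6 groups for 18 of the 43 genes (41.9%), against 19.9% of all genes tested, and t-VK12653 had the lowest for 13 (30.2%), against 17.1% of all genes tested.

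**Figure D1:**
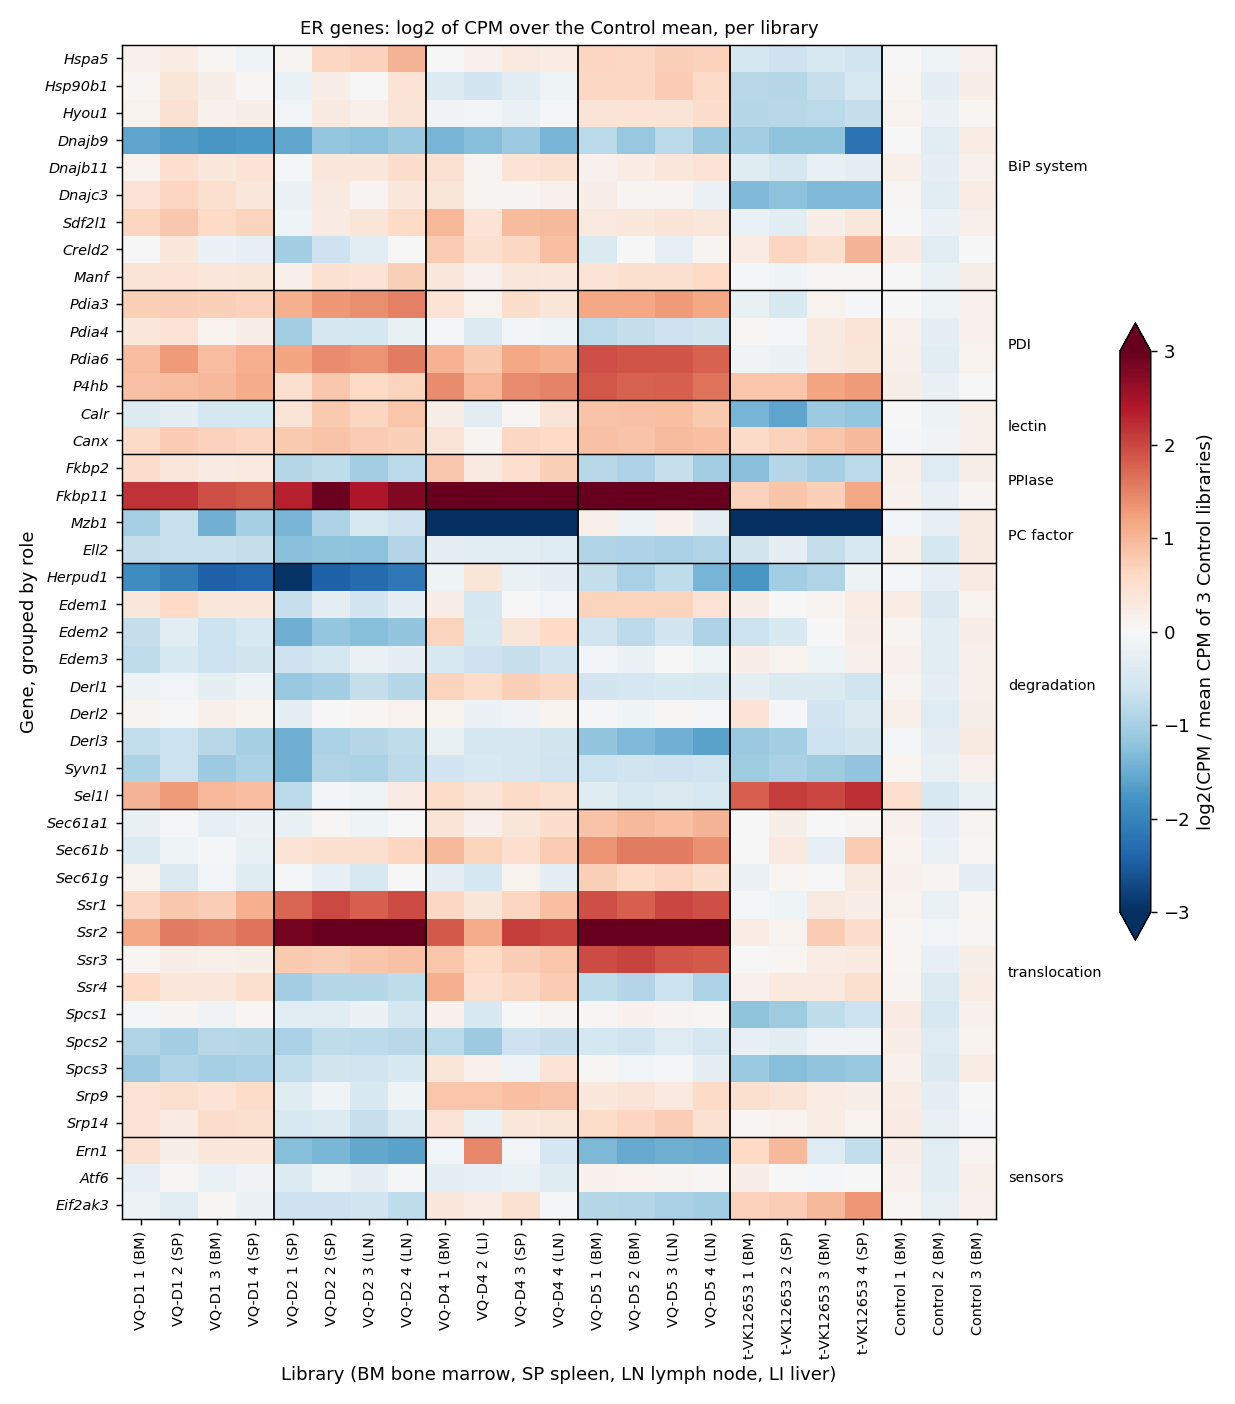
Level of each of the 43 ER genes (vertical axis, grouped by role) in each of the 23 libraries (horizontal axis), as log2 of CPM over the mean CPM of the 3 Control libraries; red is higher, blue is lower, and values beyond the ends of the colour scale take its end colours. Fkbp11 and Ssr2 are red in all VQ libraries, Dnajb9 is blue in all tumour libraries, and Mzb1 is dark blue in VQ-D4 and t-VK12653 alone.

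Each line was compared with Control to ask how its ER programme differs from that of plasma cells without the oncogenes. In VQ-D1, 17 of the 43 genes were higher and 10 lower, in a comparison that called 59.4% of 12867 genes tested, 29.7% higher and 29.7% lower. In VQ-D2, 11 were higher and 19 lower, against 57.5% of all genes called, 29.6% higher and 27.8% lower. In VQ-D4, 20 were higher and 5 lower, against 54.3% of all genes (27.5% higher, 26.9% lower). In VQ-D5, 19 were higher and 14 lower, against 63.8% of all genes (31.2% higher, 32.5% lower). In t-VK12653, 8 were higher and 16 lower, against 56.9% of all genes (28.8% higher, 28.1% lower). The calls use edgeR's quasi-likelihood F-test on counts with terms for group and tissue, and a Benjamini-Hochberg adjusted p under 0.05 over all genes tested. The shares of the 43 genes called, 62.8%, 69.8%, 58.1%, 76.7% and 55.8% in that order of lines, lie near or moderately above those of all genes. The median log2 fold change of the 43 genes was 0.15 in VQ-D1, 0.29 in VQ-D4, −0.25 in VQ-D2, 0.09 in VQ-D5 and 0.03 in t-VK12653, while the median of all genes lay between −0.04 and 0.02. With RLE scaling the VQ-D4 counts were 16 higher and 8 lower. With only VQ-D4 and Control in the fit, the tissue terms leave only the bone marrow library of VQ-D4, so no counts are given. Without abundant non-coding RNA, Rn45s included, t-VK12653 had 9 higher and 16 lower. Because VQ-D4 has the only liver library, the tissue term for liver absorbs it and the VQ-D4 fold changes rest on the other 3 libraries. VQ-D2 has no bone marrow library, so its comparison with Control rests on tissue terms tied to bone marrow only through other lines. Whether those terms hold in VQ-D2 cannot be told from these libraries.

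Lines did not share a single direction. Of the 43 genes, 41 were called in at least 1 line: 14 were higher in some lines and lower in none, 12 were lower in some and higher in none, and 15 were higher in some and lower in others. Higher in all 5 lines were 4 genes, P4hb, Canx, Fkbp11 and Ssr2. Lower in all 5 were 2 genes, Dnajb9 and Syvn1. Called in no line were Derl2 and Atf6. Each of these comparisons alone called 54.3% to 63.8% of all genes tested. The same counts across lines were not made for all genes, so whether the 43 differ from other genes here is not known. All 5 comparisons share the same 3 Control libraries, so a Control value enters each of them. Of the 10 plasma cell markers, 1 was higher and 7 lower in VQ-D1, 0 and 9 in VQ-D2, 1 and 6 in VQ-D4, 0 and 7 in VQ-D5, and 0 and 7 in t-VK12653, so they moved with each of these comparisons, and their part in the calls of the 43 genes was not tested.

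Of the 3 stress sensors, Ern1 and Eif2ak3 fell in VQ-D2 and VQ-D5, Eif2ak3 rose in t-VK12653, and Atf6 was called in no line. Ern1 encodes IRE1, the kinase and RNase that splices Xbp1 mRNA. It had 476, 389.9, 431 and 431 CPM in VQ-D1, 327, 934, 326 and 243 CPM in VQ-D4, 143, 133, 119 and 113 CPM in VQ-D2, 135, 121, 126 and 123 CPM in VQ-D5 and 524, 683, 263 and 207 CPM in t-VK12653, against 393, 276 and 366 CPM in Control. The 8 VQ-D2 and VQ-D5 libraries lay below all others, and within VQ-D4 the liver library stood far above the other 3. Against Control the log2 fold change was −1.37 (SE 0.348, edgeR adjusted p = 0.00299) in VQ-D2 and −1.35 (SE 0.321, edgeR adjusted p = 0.00152) in VQ-D5. It was 0.30 in VQ-D1, −0.17 in VQ-D4 and 0.26 in t-VK12653, none of them called, and the 4 values of t-VK12653 spanned the Control range.

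Eif2ak3 encodes PERK, the kinase that slows translation under ER stress. It had 268, 241, 308 and 267 CPM in VQ-D1, 374, 349, 409 and 287 CPM in VQ-D4, 195, 195, 201 and 177 CPM in VQ-D2, 165, 162, 152 and 147 CPM in VQ-D5 and 481, 503, 588 and 739 CPM in t-VK12653, against 314, 257 and 329 CPM in Control. All t-VK12653 libraries exceeded every other library, and all VQ-D2 and VQ-D5 libraries lay below every other. Against Control, Eif2ak3 rose in t-VK12653 with a log2 fold change of 0.93 (SE 0.141, edgeR adjusted p = 7.55e-06). It fell in VQ-D5, at −0.86 (SE 0.144, edgeR adjusted p = 2.04e-05), and in VQ-D2, at −0.57 (SE 0.158, edgeR adjusted p = 0.00392). Atf6, the membrane-bound transcription factor precursor, had 412 to 503 CPM in VQ-D1, 379 to 425 in VQ-D4, 370.0 to 467 in VQ-D2, 499.6 to 531 in VQ-D5 and 475 to 557 in t-VK12653, against 389 to 541 CPM in Control. Its ranges overlapped Control in every line, and its log2 fold changes lay between −0.30 in VQ-D4 and 0.08 in VQ-D5. With RLE scaling, and with DESeq2, Atf6 passed the threshold as lower in VQ-D2 (−0.32 by both) and VQ-D4 (−0.37 by both).

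Of the transcription factors downstream of the sensors, Ddit3 differed most from Control. Ddit3 encodes CHOP, a transcription factor induced through PERK and ATF4. It had 28.4, 14.0, 11.1 and 10.2 CPM in VQ-D1, 25.3, 55.9, 42.8 and 30.1 CPM in VQ-D4, 2.54, 2.75, 2.72 and 4.53 CPM in VQ-D2, 3.11, 3.44, 6.16 and 4.43 CPM in VQ-D5 and 11.0, 6.77, 12.9 and 6.31 CPM in t-VK12653, against 52.9, 39.9 and 44.1 CPM in Control. VQ-D2 and VQ-D5 libraries had at most 6.16 CPM, and only VQ-D4 libraries reached the Control range. Ddit3 fell, with a log2 fold change of −3.80 (SE 0.415, edgeR adjusted p = 1.69e-07) in VQ-D2, −3.44 (SE 0.376, edgeR adjusted p = 1.03e-07) in VQ-D5, −2.20 (SE 0.33, edgeR adjusted p = 9.74e-06) in t-VK12653 and −1.44 (SE 0.31, edgeR adjusted p = 0.000486) in VQ-D1. Atf4, the translationally controlled factor of the PERK arm, had 452, 343, 340.0 and 303 CPM in VQ-D1, 725, 855, 776 and 798 CPM in VQ-D4, 215, 253, 210.2 and 266 CPM in VQ-D2, 259, 246, 274 and 274 CPM in VQ-D5 and 276, 327, 249.7 and 283 CPM in t-VK12653, against 496, 363 and 434 CPM in Control. Every VQ-D4 library stood above every library of the other groups, and Atf4 rose there by 0.80 (SE 0.149, edgeR adjusted p = 0.000104), while it fell in VQ-D2 (−0.91), VQ-D5 (−0.75) and t-VK12653 (−0.60). Xbp1, whose spliced form drives ER expansion in plasma cells, had 1163, 1457, 1299 and 1464 CPM in VQ-D1, 2973, 3262, 2395 and 2796 CPM in VQ-D4, 1015, 1498, 1217 and 1535 CPM in VQ-D2, 1282, 1632, 1433 and 1957 CPM in VQ-D5 and 1601, 1765, 1588 and 1689.6 CPM in t-VK12653, against 2954, 1747 and 2588 CPM in Control. It fell in VQ-D1 at −0.90 (SE 0.176, edgeR adjusted p = 0.000207), in VQ-D2 at −1.02 (SE 0.198, edgeR adjusted p = 0.000193), in VQ-D5 at −0.72 and in t-VK12653 at −0.59. In VQ-D4 it was not called (0.08, edgeR adjusted p = 0.748). Counts per gene do not separate spliced from unspliced Xbp1.

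**Figure D2:**
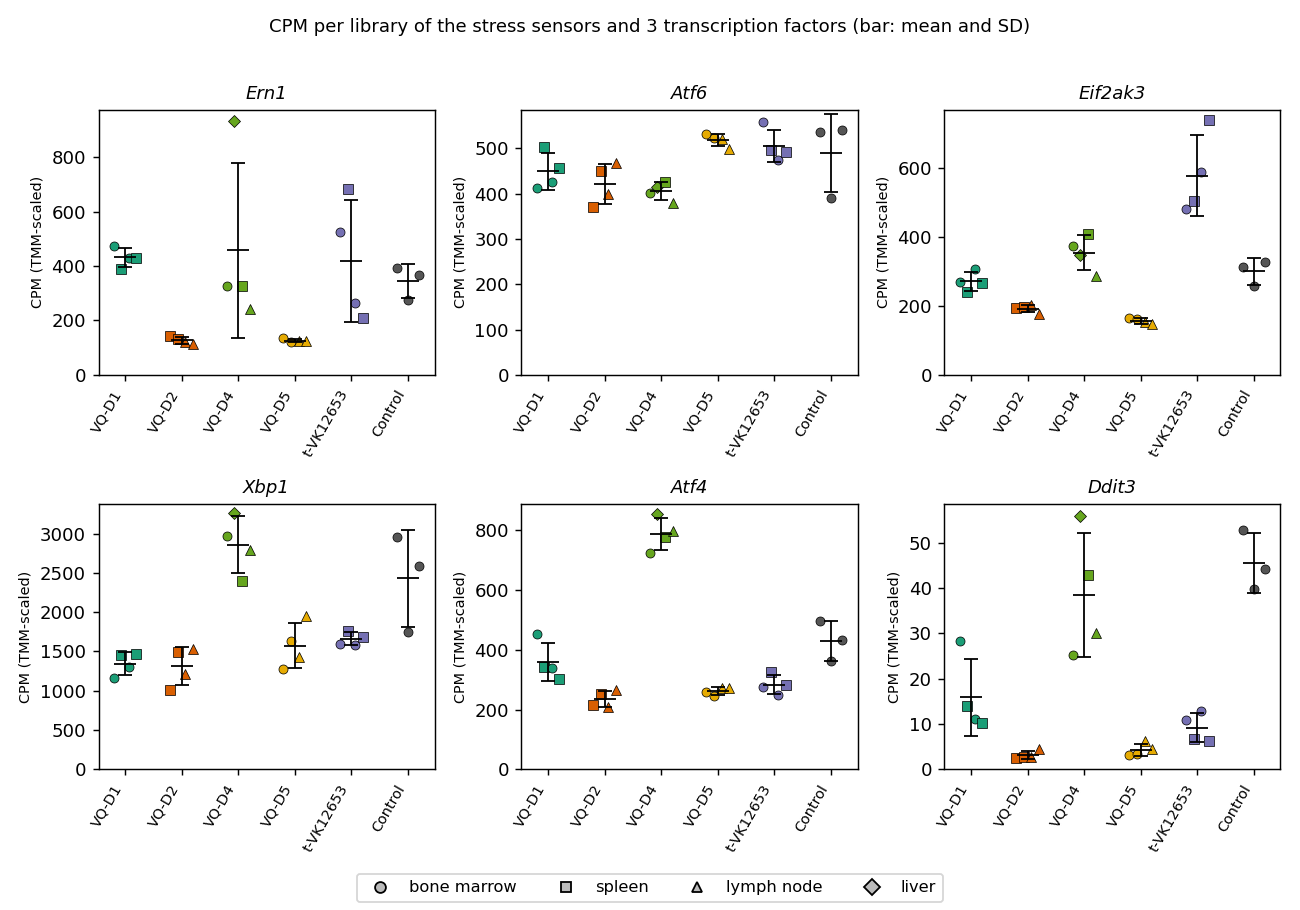
CPM (vertical axes, linear, starting at 0) of the sensors Ern1, Atf6 and Eif2ak3 and of Xbp1, Atf4 and Ddit3 in each library, by group (horizontal axis); the shape of a point gives the tissue, and the bars show the mean and SD of 4 libraries (3 in Control). VQ-D2 and VQ-D5 sit lowest for Ern1, Eif2ak3 and Ddit3, VQ-D4 sits highest for Atf4, and the liver library of VQ-D4 is the highest point for Ern1 at 934 CPM.

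Of the 9 chaperones of the BiP system, 4 were higher and 1 lower in VQ-D1, 4 and 1 in VQ-D4, 2 and 2 in VQ-D2, 4 and 1 in VQ-D5, and 1 and 6 in t-VK12653, each against Control. In these comparisons 27.5% to 31.2% of all genes tested were higher and 26.9% to 32.5% lower. The same shares stand beside the counts of every role below. Hspa5 encodes BiP, the HSP70 of the ER lumen. It had 2781, 2969, 2652 and 2330.2 CPM in VQ-D1, 2553, 2752, 3099.5 and 2971 CPM in VQ-D4, 2683, 3872, 4122 and 5125 CPM in VQ-D2, 3991, 3879, 4144 and 4094 CPM in VQ-D5 and 1764, 1641, 1838 and 1668 CPM in t-VK12653, against 2520.3, 2305 and 2775 CPM in Control. The 4 t-VK12653 libraries lay below all other libraries and the 4 VQ-D5 libraries above those of VQ-D1, VQ-D4 and Control. Against Control, Hspa5 fell in t-VK12653, with a log2 fold change of −0.52 (SE 0.135, edgeR adjusted p = 0.00242). It rose in VQ-D5 at 0.57 (SE 0.138, edgeR adjusted p = 0.000993) and in VQ-D2 at 0.57 (SE 0.155, edgeR adjusted p = 0.00356), where the lowest of the 4 libraries lay inside the Control range. In VQ-D1 (0.12) and VQ-D4 (0.15) it was not called.

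Of the other chaperones of the BiP system, Dnajc3 and Hyou1 were lowest in t-VK12653 without overlap, and the rest were not. Dnajc3 encodes p58IPK, a J-domain co-chaperone. It had 999, 1151, 1029 and 944 CPM in VQ-D1, 948, 786, 781 and 816 CPM in VQ-D4, 657, 889, 784 and 926 CPM in VQ-D2, 855, 785, 782 and 656 CPM in VQ-D5 and 295, 315, 294 and 296 CPM in t-VK12653, against 754, 598 and 870.4 CPM in Control. The highest t-VK12653 library, at 315 CPM, lay below the lowest of all other libraries, at 598 CPM. The log2 fold change of t-VK12653 against Control was −1.27 (SE 0.137, edgeR adjusted p = 8.08e-08), and VQ-D1, at 0.51 (SE 0.136, edgeR adjusted p = 0.00274), was the only line in which Dnajc3 rose. Hyou1, the large HSP70 that exchanges nucleotide on BiP, fell in t-VK12653 at −0.83 (SE 0.109, edgeR adjusted p = 1.18e-06) and rose in VQ-D5 at 0.36. Hsp90b1 fell in t-VK12653 at −0.73 (SE 0.14, edgeR adjusted p = 0.000128) and rose in VQ-D5 at 0.57. Dnajb11, the co-chaperone ERdj3, fell in t-VK12653 (−0.36), where its 339 to 415 CPM overlapped the 390.2 to 531 CPM of Control, and rose in VQ-D1 (0.33) and VQ-D4 (0.36). Exons of Hsp90b1 overlap those of the antisense gene 1810014B01Rik over 10.3% of their length, and the sources used here do not state whether counting used strand.

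Dnajb9 was lower in every line. It encodes ERdj4, a BiP co-chaperone that restrains IRE1, and is known as a target of spliced XBP1. It had 84.9, 79.6, 76.1 and 76.8 CPM in VQ-D1, 96.6, 105, 119 and 96.3 CPM in VQ-D4, 86.8, 114, 108 and 117 CPM in VQ-D2, 144, 116, 144 and 118 CPM in VQ-D5 and 126, 110.2, 111 and 54.6 CPM in t-VK12653, against 258, 205 and 299 CPM in Control. No tumour library reached the lowest Control library. The log2 fold change was −1.60 (SE 0.208, edgeR adjusted p = 2.43e-06) in VQ-D1, −1.22 (SE 0.229, edgeR adjusted p = 0.000178) in VQ-D4, −1.16 in VQ-D2, −0.93 in VQ-D5 and −1.27 (SE 0.204, edgeR adjusted p = 3.11e-05) in t-VK12653. Sdf2l1, which works in ERdj3 complexes, rose in VQ-D1 (0.69) and VQ-D4 (0.92). Manf, a small BiP-binding protein that is also secreted, rose in the 4 VQ lines by 0.38, 0.40, 0.30 and 0.44 from the lowest line number to the highest, and stood at −0.01 in t-VK12653. Creld2, a stress-induced ER protein, rose in VQ-D4 (0.60) and t-VK12653 (0.56) and fell in VQ-D2 (−0.73).

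Promoter sequence was available from RefSeq (GRCm38.p6, 250 bases before to 50 bases after the start site) for 35 of the 43 genes. The ER stress response element, CCAAT and CCACG with any 9 bases between them, which NF-Y with ATF6 or XBP1 is known to bind, was searched on both strands. It was found without a mismatch in 9 of the 35 genes (25.7%) and in 37 of 27025 genes with a listed promoter (0.137%). The sites are shown because 6 of these 9 genes were lower in t-VK12653 than in Control, where 28.1% of all genes tested were lower. Of these 6, Syvn1 was lower in every other line too, Derl3 in VQ-D1, VQ-D2 and VQ-D5, and Calr in VQ-D1. Counts in the other lines differed, as given after the sites, and a link between the element and these levels was not tested. Each is written in the direction of the element, with the fixed letters in capitals, and its promoter window and strand are given in parentheses:
Hspa5 (chr2:34771840-34772139, plus strand): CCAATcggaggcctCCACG
Hsp90b1, the site farther from the start (chr10:86705395-86705694, minus strand): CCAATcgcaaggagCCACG
Hsp90b1, the site nearer to the start (same window): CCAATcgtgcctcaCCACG
Dnajc3 (chr14:118937682-118937981, plus strand): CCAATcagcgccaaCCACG
Creld2 (chr15:88819396-88819695, plus strand): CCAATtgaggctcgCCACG
Pdia6 (chr12:17266339-17266638, plus strand): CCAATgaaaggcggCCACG
Calr (chr8:84846882-84847181, minus strand): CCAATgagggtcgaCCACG
Canx (chr11:50325624-50325923, minus strand): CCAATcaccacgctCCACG
Derl3 (chr10:75893148-75893447, plus strand): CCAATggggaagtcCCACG
Syvn1 (chr19:6046326-6046625, plus strand): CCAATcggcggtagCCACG

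Counted from the start site to the end of the element that lies farther upstream, the distances ran from 44 bases in Syvn1 to 212 bases in Hsp90b1. Allowing 1 mismatch, 17 of the 35 genes (48.6%) and 1.72% of all genes held the element. A related form, ATTGG and CCACG with any 1 base between them, was in Dnajb11 and Herpud1 (5.71% of the 35 genes, 0.0444% of all). The core TGACGTG was in Hspa5 and Fkbp11 (5.71%, against 2.22% of all), and the E-box CACGTG was in 5 genes (14.3%, against 8.09% of all). Of the 9 genes with the exact element, 2 were higher and 6 lower in t-VK12653 than in Control, with a median log2 fold change of −0.73. The 26 genes with a listed promoter and no exact element had 5 higher and 6 lower, with a median of 0.07. In VQ-D5 the counts of the 9 genes were 5 higher and 2 lower, with a median of 0.57, and the 26 others had a median of −0.0043. In VQ-D2 they were 4 higher and 3 lower, with medians of 0.21 with the element and −0.38 without. In VQ-D1, with 3 higher and 3 lower, and in VQ-D4, with 3 higher and 1 lower, the order was the other way: the medians were 0.12 with the element and 0.28 without in VQ-D1, and 0.21 with and 0.38 without in VQ-D4. These are descriptions of letters in a window and of fold changes, with no test between both sets of genes.

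For 3 of these genes, which had lower levels in t-VK12653 than in Control, the bases upstream of the start site are given on the strand of the gene, 5′ to 3′, with the element in capitals. In Calr the element lies on the opposite strand of the gene, so its letters appear in reverse complement:
Hspa5 (chr2:34771840-34772089): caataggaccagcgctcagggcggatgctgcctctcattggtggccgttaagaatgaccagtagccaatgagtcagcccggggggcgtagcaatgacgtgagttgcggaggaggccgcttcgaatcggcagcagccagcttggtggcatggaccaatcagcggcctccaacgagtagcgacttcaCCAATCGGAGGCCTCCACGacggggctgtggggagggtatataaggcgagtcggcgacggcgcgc
Dnajc3 (chr14:118937682-118937931): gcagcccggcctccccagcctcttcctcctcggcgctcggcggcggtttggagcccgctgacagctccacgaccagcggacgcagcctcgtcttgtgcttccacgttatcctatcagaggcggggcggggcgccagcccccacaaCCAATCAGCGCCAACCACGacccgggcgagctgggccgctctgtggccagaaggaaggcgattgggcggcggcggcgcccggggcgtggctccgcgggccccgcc
Calr (chr8:84846932-84847181): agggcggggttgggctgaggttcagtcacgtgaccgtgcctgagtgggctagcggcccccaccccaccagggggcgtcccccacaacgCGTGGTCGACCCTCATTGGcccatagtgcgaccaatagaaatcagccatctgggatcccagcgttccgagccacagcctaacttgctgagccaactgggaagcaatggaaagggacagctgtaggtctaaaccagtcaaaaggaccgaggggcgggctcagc

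The lectin chaperone gene Calr was lower than Control in some lines and higher in others. Calreticulin binds glycoproteins in the lumen. Its gene had 1874, 2058, 1767 and 1746 CPM in VQ-D1, 2856, 1993, 2614 and 3243 CPM in VQ-D4, 3282, 4305, 3911 and 4427 CPM in VQ-D2, 4548, 4600.5, 4671 and 4317 CPM in VQ-D5 and 949, 835, 1165 and 1119.5 CPM in t-VK12653, against 2474, 2251 and 2767 CPM in Control. The 4 t-VK12653 libraries were the lowest, VQ-D1 lay next and below Control, VQ-D4 overlapped Control, and VQ-D2 and VQ-D5 lay wholly above it. The log2 fold change was −1.26 (SE 0.124, edgeR adjusted p = 1.99e-08) in t-VK12653, −0.39 (SE 0.125, edgeR adjusted p = 0.0102) in VQ-D1, 0.67 (SE 0.142, edgeR adjusted p = 0.000391) in VQ-D2 and 0.83 (SE 0.127, edgeR adjusted p = 7.31e-06) in VQ-D5. Canx, the membrane-bound counterpart of calreticulin, rose in all 5 lines. Its log2 fold changes were 0.61, 0.68, 0.46 and 0.86 from VQ-D1 up to VQ-D5, and 0.71 in t-VK12653. It stood at 946, 764, 1116 and 1093 CPM in VQ-D4, where the liver library lay in the Control range of 676 to 809 CPM.

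Of the 4 protein disulfide isomerases, which form and rearrange disulfide bonds, 3 rose in each VQ line and 1, P4hb, in t-VK12653. Pdia6 had 1195, 1512, 1185 and 1332 CPM in VQ-D1, 1286, 1085, 1392 and 1301 CPM in VQ-D4, 1430.3, 1669.8, 1593 and 1835 CPM in VQ-D2, 2397, 2313, 2315 and 2135 CPM in VQ-D5 and 579, 551, 751 and 805 CPM in t-VK12653, against 698, 501 and 677 CPM in Control. Every VQ library exceeded every t-VK12653 and Control library, and the t-VK12653 and Control ranges overlapped. The log2 fold changes against Control were 1.02 (SE 0.145, edgeR adjusted p = 3.41e-06) in VQ-D1, 1.32 (SE 0.164, edgeR adjusted p = 6.32e-07) in VQ-D2, 1.04 (SE 0.155, edgeR adjusted p = 7.61e-06) in VQ-D4 and 1.85 (SE 0.149, edgeR adjusted p = 5.31e-10) in VQ-D5. P4hb, the founding member of the family, had 1724, 1805, 1861 and 2032 CPM in VQ-D1, 2515, 1891, 2519 and 2664 CPM in VQ-D4, 1311, 1660.0, 1426 and 1495 CPM in VQ-D2, 3439, 3229, 3278 and 2914 CPM in VQ-D5 and 1669, 1684, 2135 and 2292 CPM in t-VK12653, against 1069, 809 and 954 CPM in Control. All 20 tumour libraries lay above all 3 Control libraries. Its log2 fold change was largest in VQ-D5, at 1.77 (SE 0.132, edgeR adjusted p = 1.5e-10), and was 1.43 (SE 0.138, edgeR adjusted p = 1.92e-08) in VQ-D4 and 1.02 (SE 0.128, edgeR adjusted p = 6.54e-07) in t-VK12653.

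Pdia3, the isomerase that works with the lectin chaperones, had 1275, 1306, 1279.8 and 1252 CPM in VQ-D1, 1037, 835, 1116 and 1006 CPM in VQ-D4, 1634, 1929.9, 2055 and 2217 CPM in VQ-D2, 1741, 1744, 1881 and 1734 CPM in VQ-D5 and 673, 569.9, 846 and 751 CPM in t-VK12653, against 775, 709.8 and 855 CPM in Control. VQ-D1, VQ-D2 and VQ-D5 libraries lay above Control, and in VQ-D4 the liver library lay inside the Control range. Pdia3 rose by 1.34 (SE 0.135, edgeR adjusted p = 3.28e-08) in VQ-D2, 1.16 in VQ-D5, 0.75 in VQ-D1 and 0.45 in VQ-D4, and was not called in t-VK12653 (−0.10). Pdia4 rose in no line. It had 4627, 4971, 3987 and 4220.0 CPM in VQ-D1, 3527, 2778, 3517 and 3399.6 CPM in VQ-D4, 1808, 2631, 2554 and 3166 CPM in VQ-D2, 2128, 2273, 2426 and 2539 CPM in VQ-D5 and 3775, 3531, 4499 and 4838 CPM in t-VK12653, against 4016, 3027 and 4064 CPM in Control. It fell in VQ-D5, at −0.76 (SE 0.153, edgeR adjusted p = 0.00018), and in VQ-D2, at −0.65 (SE 0.17, edgeR adjusted p = 0.00248), although 1 VQ-D2 library lay inside the Control range.

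Of the prolyl isomerases, Fkbp11 had one of the largest rises of all 43 genes. Fkbp11 encodes a membrane-bound isomerase found in secretory tissues. It had 239, 239.7, 202 and 193 CPM in VQ-D1, 705, 456, 591 and 779 CPM in VQ-D4, 266, 406, 284 and 363 CPM in VQ-D2, 504, 523, 458 and 421 CPM in VQ-D5 and 86.0, 94.2, 86.5 and 118 CPM in t-VK12653, against 57.7, 45.4 and 56.2 CPM in Control. Control libraries were the lowest, t-VK12653 came next, and all VQ libraries were above both. The log2 fold change was 3.71 (SE 0.189, edgeR adjusted p = 2.53e-12) in VQ-D4, 3.17 (SE 0.179, edgeR adjusted p = 3.96e-12) in VQ-D5, 2.64 (SE 0.195, edgeR adjusted p = 5.03e-10) in VQ-D2, 2.03 (SE 0.173, edgeR adjusted p = 3.77e-09) in VQ-D1 and 0.85 (SE 0.175, edgeR adjusted p = 0.000301) in t-VK12653. Fkbp2, a lumenal isomerase, had 299.8, 265, 249 and 257 CPM in VQ-D1, 365, 251, 296 and 344 CPM in VQ-D4, 116, 123, 102 and 118 CPM in VQ-D2, 117, 109, 129 and 102 CPM in VQ-D5 and 87.1, 115, 105 and 119 CPM in t-VK12653, against 231, 159.6 and 235 CPM in Control. Its VQ-D1 and VQ-D4 libraries lay above Control, and its VQ-D2, VQ-D5 and t-VK12653 libraries below. It rose in VQ-D4 (0.67) and VQ-D1 (0.34) and fell in VQ-D2 (−0.88), VQ-D5 (−0.87) and t-VK12653 (−0.99).

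**Figure D3:**
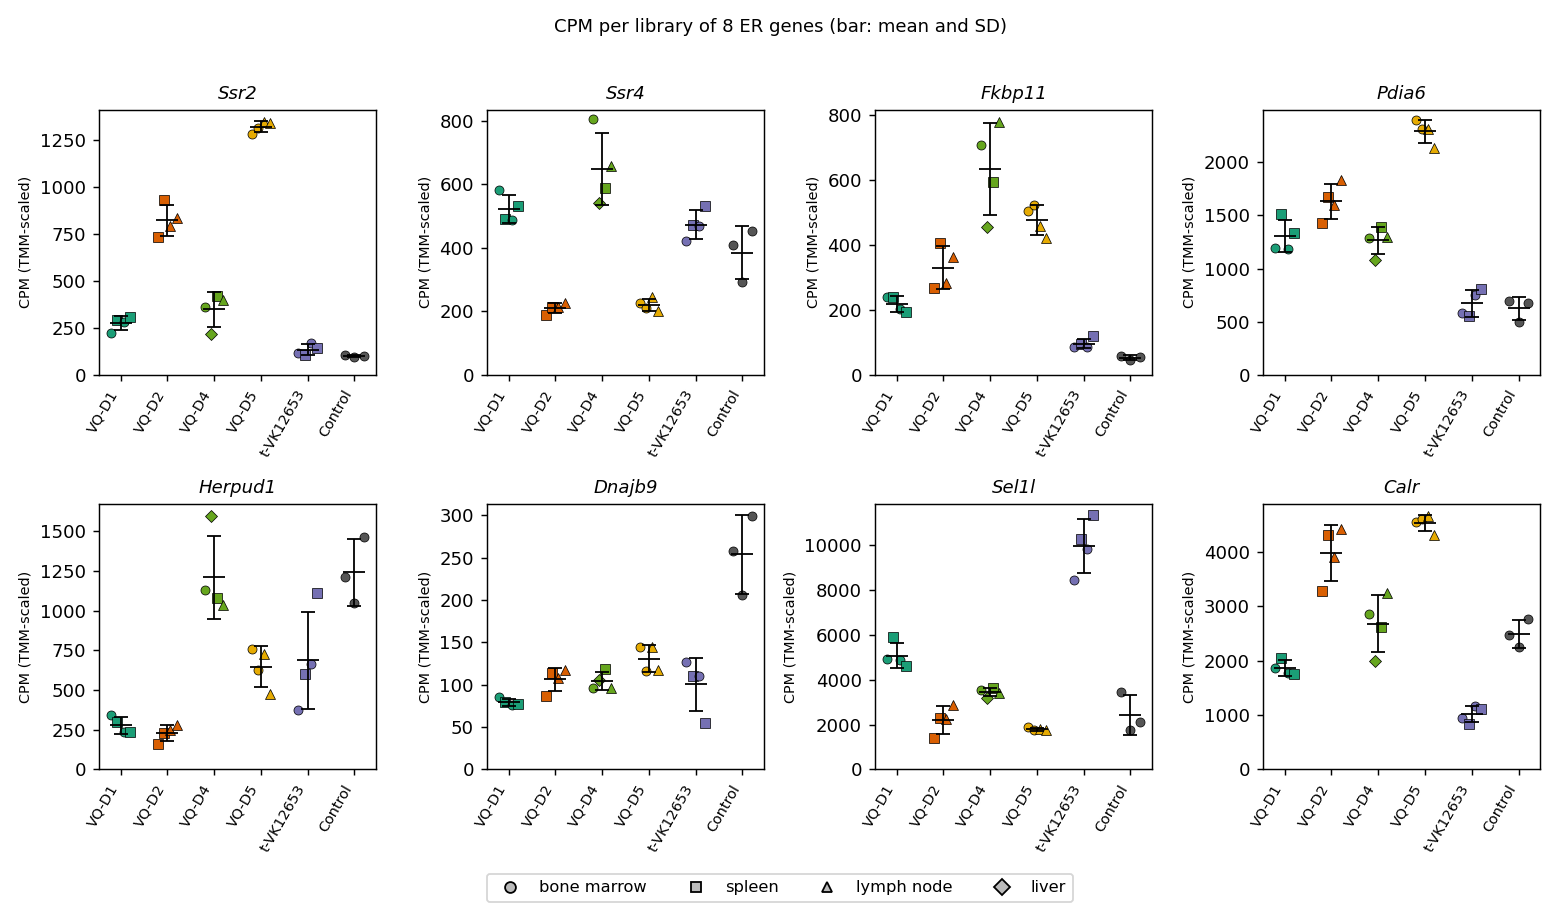
CPM (vertical axes, linear, starting at 0) of 8 ER genes in each library, by group (horizontal axis); the shape of a point gives the tissue, and the bars show the mean and SD of 4 libraries (3 in Control). Ssr2 separates VQ-D5, at 1279 to 1342 CPM, and VQ-D2 from the other groups, Ssr4 is lowest in VQ-D2 and VQ-D5, Sel1l is highest in t-VK12653, and Dnajb9 is highest in Control.

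Of the 12 genes for translocation and signal peptide processing, 5 were higher and 2 lower in VQ-D1, 8 and 1 in VQ-D4, 3 and 4 in VQ-D2, 8 and 2 in VQ-D5, and 2 and 2 in t-VK12653, each against Control. Over all genes tested, 27.5% to 31.2% were higher and 26.9% to 32.5% lower in these comparisons. The TRAP complex, encoded by Ssr1 to Ssr4, sits beside the Sec61 channel and helps some chains to enter. Ssr2, on chromosome 3 from 88579608 to 88588420, had 222, 292, 282 and 309 CPM in VQ-D1, 359.6, 215, 420.4 and 398 CPM in VQ-D4, 734, 928, 791 and 833 CPM in VQ-D2, 1279, 1311, 1342 and 1338 CPM in VQ-D5 and 116, 107, 168 and 144 CPM in t-VK12653, against 104, 93.8 and 102 CPM in Control. VQ-D5 libraries were highest and VQ-D2 next without overlap, VQ-D1 and VQ-D4 overlapped each other, and t-VK12653 and Control were lowest. The log2 fold change was 3.69 (SE 0.155, edgeR adjusted p = 2.31e-14) in VQ-D5, 2.97 (SE 0.165, edgeR adjusted p = 4.27e-12) in VQ-D2, 1.92 (SE 0.154, edgeR adjusted p = 1.27e-09) in VQ-D4, 1.42 (SE 0.144, edgeR adjusted p = 2.91e-08) in VQ-D1 and 0.38 (SE 0.141, edgeR adjusted p = 0.0264) in t-VK12653.

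Ssr1 had 669, 758, 715 and 912 CPM in VQ-D1, 667, 557, 675 and 809.8 CPM in VQ-D4, 1434, 1708, 1503 and 1664 CPM in VQ-D2, 1633, 1499, 1736 and 1649 CPM in VQ-D5 and 423, 392, 518 and 493 CPM in t-VK12653, against 466, 374 and 452 CPM in Control. Every VQ library exceeded every Control library, and VQ-D2 and VQ-D5 exceeded VQ-D1 and VQ-D4. It rose by 1.84 (SE 0.128, edgeR adjusted p = 5.53e-11) in VQ-D5, 1.75 in VQ-D2, 0.78 in VQ-D1 and 0.65 in VQ-D4. Ssr3 had 536, 588, 576 and 578 CPM in VQ-D1, 915, 786, 864 and 911 CPM in VQ-D4, 885, 857, 916 and 947 CPM in VQ-D2, 2007, 2092, 1904 and 1835 CPM in VQ-D5 and 520.4, 541, 597 and 622 CPM in t-VK12653, against 535, 434 and 578 CPM in Control. All VQ-D5 libraries stood above all others, and VQ-D2 and VQ-D4 libraries lay above Control. It rose in VQ-D5 by 1.93 (SE 0.106, edgeR adjusted p = 1.34e-12), in VQ-D2 by 0.81 and in VQ-D4 by 0.80.

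Ssr4, on the X chromosome from 73787023 to 73790828, differed from the other 3 subunits. It had 580.4, 490.1, 487 and 533 CPM in VQ-D1, 804, 542, 588 and 657 CPM in VQ-D4, 189, 213, 213 and 227 CPM in VQ-D2, 226, 210.5, 244 and 202 CPM in VQ-D5 and 422, 471, 468 and 533 CPM in t-VK12653, against 410.2, 292 and 452 CPM in Control. All VQ-D2 and VQ-D5 libraries lay below Control, and all VQ-D1 and VQ-D4 libraries above it. It fell in VQ-D2, at −0.85 (SE 0.159, edgeR adjusted p = 9.93e-05), and in VQ-D5, at −0.81 (SE 0.144, edgeR adjusted p = 4.26e-05), and rose in VQ-D4, at 0.84 (SE 0.15, edgeR adjusted p = 6.59e-05), and in VQ-D1, at 0.47 (SE 0.14, edgeR adjusted p = 0.00652). The log2 ratio of Ssr4 to Ssr2 within a library, in TPM, was 1.30 to 1.94 in VQ-D1, 1.04 to 1.89 in VQ-D4, −1.57 to −1.32 in VQ-D2, −2.17 to −1.90 in VQ-D5 and 2.03 to 2.69 in t-VK12653, against 2.19 to 2.70 in Control. This ratio changed sign in VQ-D2 and VQ-D5 alone.

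Subunits of the Sec61 channel were higher in VQ-D5. Sec61a1, the pore, had 474, 530.0, 462 and 488 CPM in VQ-D1, 719, 615, 707 and 798 CPM in VQ-D4, 474, 566, 507 and 556 CPM in VQ-D2, 1003, 1077, 1028 and 1120.3 CPM in VQ-D5 and 558, 618, 558 and 581 CPM in t-VK12653, against 606, 461 and 585 CPM in Control. VQ-D5 libraries stood above all others and VQ-D4 above Control. Sec61a1 rose in VQ-D5 by 0.89 (SE 0.102, edgeR adjusted p = 1.29e-07) and in VQ-D4 by 0.37 (SE 0.108, edgeR adjusted p = 0.00648). In VQ-D5 the small subunits rose too, Sec61b by 1.41 and Sec61g by 0.67, and Sec61b rose in VQ-D4 by 0.71. Signal peptidase, which removes the leader peptide, was lower where it was called. Spcs3 had 237 to 272 CPM in VQ-D1, 473 to 673 in VQ-D4, 304 to 371 in VQ-D2, 417 to 524 in VQ-D5 and 209 to 234 in t-VK12653, against 379 to 593 CPM in Control. It fell in t-VK12653, at −1.13 (SE 0.14, edgeR adjusted p = 5.53e-07), in VQ-D1, at −0.94 (SE 0.14, edgeR adjusted p = 6.62e-06), and in VQ-D2, at −0.53.

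Spcs2, another signal peptidase subunit, had 292, 240.3, 329 and 318 CPM in VQ-D4 and fell there, at −0.73 (SE 0.131, edgeR adjusted p = 6.74e-05), and its Control libraries were at 590.4, 387 and 554 CPM. It also fell in VQ-D1 (−0.91), VQ-D2 (−0.87) and VQ-D5 (−0.53). Spcs1 fell in t-VK12653 (−0.94), and its exons overlap antisense Glt8d1 over 16.3% of their length. Srp9 and Srp14 encode the part of the signal recognition particle that pauses translation. Srp9 rose in VQ-D4 (0.84), VQ-D1 (0.44), VQ-D5 (0.38) and t-VK12653 (0.30). Srp14 rose in VQ-D1 (0.45), VQ-D4 (0.39) and VQ-D5 (0.63) and fell in VQ-D2 (−0.45).

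Of the 9 degradation genes, 2 were higher and 5 lower in VQ-D1, 2 and 2 in VQ-D4, 0 and 7 in VQ-D2, 1 and 6 in VQ-D5, and 1 and 4 in t-VK12653, each against Control. Over all genes tested, 27.5% to 31.2% were higher and 26.9% to 32.5% lower in these comparisons. Herpud1, an adaptor of the HRD1 complex that is induced by ER stress, had 339, 297, 233 and 238 CPM in VQ-D1, 1132, 1598, 1079.6 and 1033 CPM in VQ-D4, 161, 232, 251 and 281 CPM in VQ-D2, 758, 628, 726 and 473 CPM in VQ-D5 and 371, 599.6, 663 and 1107 CPM in t-VK12653, against 1213, 1046 and 1463 CPM in Control. VQ-D1, VQ-D2 and VQ-D5 libraries lay below Control, and VQ-D4 overlapped it, as did 1 of the t-VK12653 libraries. Herpud1 fell, with log2 fold changes of −2.52 (SE 0.35, edgeR adjusted p = 1.35e-05) in VQ-D2, −2.21 (SE 0.306, edgeR adjusted p = 1.26e-05) in VQ-D1, −0.99 (SE 0.306, edgeR adjusted p = 0.00982) in VQ-D5 and −0.91 (SE 0.313, edgeR adjusted p = 0.0202) in t-VK12653. The VQ-D5 call ended without Control replicate 3 (log2 fold change −0.81, edgeR adjusted p = 0.0541). Syvn1 encodes HRD1, the ubiquitin ligase itself. It had 251, 311, 226 and 249.8 CPM in VQ-D1, 326, 349, 341 and 319 CPM in VQ-D4, 175, 258, 251 and 279.6 CPM in VQ-D2, 308, 322, 312 and 319 CPM in VQ-D5 and 230.0, 246, 230.0 and 212 CPM in t-VK12653, against 507, 414 and 529 CPM in Control. Every tumour library was below every Control library. The log2 fold changes were −0.92, −1.08, −0.61 and −0.67 from VQ-D1 up to VQ-D5 and −1.09 in t-VK12653, and the largest edgeR adjusted p of the 5 was 0.00138, in VQ-D4.

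Sel1l encodes the partner that holds HRD1 stable. It had 4946, 5905, 4876 and 4607 CPM in VQ-D1, 3562, 3201, 3637 and 3398 CPM in VQ-D4, 1384, 2311, 2239 and 2868 CPM in VQ-D2, 1894, 1759, 1812 and 1741 CPM in VQ-D5 and 8465, 10289, 9831 and 11345 CPM in t-VK12653, against 3442, 1767 and 2102 CPM in Control. The t-VK12653 libraries stood above all others and VQ-D1 came next, above Control, VQ-D2, VQ-D4 and VQ-D5. Sel1l rose by 2.02 (SE 0.227, edgeR adjusted p = 5.7e-07) in t-VK12653 and 1.04 (SE 0.22, edgeR adjusted p = 0.000526) in VQ-D1. In VQ-D5 it was called lower, at −0.51 (SE 0.22, edgeR adjusted p = 0.0496), with values of 1894, 1759, 1812 and 1741 CPM that overlapped the Control range.

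Other genes of degradation split by line. Edem2, which trims mannose from misfolded glycoproteins, had 278, 358, 292 and 327 CPM in VQ-D1, 716, 327, 587 and 687 CPM in VQ-D4, 164, 203, 187 and 199 CPM in VQ-D2, 299, 263, 303 and 239.8 CPM in VQ-D5 and 291, 329, 449 and 518 CPM in t-VK12653, against 483, 356 and 522 CPM in Control. It fell in VQ-D2, at −1.35 (SE 0.204, edgeR adjusted p = 1.33e-05), in VQ-D5 (−0.75) and in VQ-D1 (−0.58), and rose in VQ-D4 (0.50), where the liver library had a lower CPM than any Control library. Derl1, a channel component, had 164, 171, 148 and 163 CPM in VQ-D1, 289.8, 265, 296 and 278 CPM in VQ-D4, 82.5, 90.1, 109.6 and 99.4 CPM in VQ-D2, 121, 128, 133 and 130.1 CPM in VQ-D5 and 150.0, 133, 134 and 121 CPM in t-VK12653, against 191, 150.1 and 203 CPM in Control. VQ-D4 libraries stood above all others. Derl1 rose in VQ-D4 by 0.65 (SE 0.119, edgeR adjusted p = 7.84e-05) and fell in VQ-D2 at −0.95 (SE 0.126, edgeR adjusted p = 1.39e-06), VQ-D5 (−0.55) and t-VK12653 (−0.41).

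Derl3, a relative of Derl1 that ER stress induces, had 189.5, 205, 178 and 161 CPM in VQ-D1, 273, 224, 224 and 217 CPM in VQ-D4, 116, 164, 176 and 187 CPM in VQ-D2, 140.1, 127, 117 and 105 CPM in VQ-D5 and 147, 157, 204 and 217 CPM in t-VK12653, against 309.6, 265 and 381 CPM in Control. All libraries of t-VK12653, VQ-D5, VQ-D2 and VQ-D1 lay below Control, with the lowest values in VQ-D5, where its log2 fold change was −1.35 (SE 0.18, edgeR adjusted p = 1.78e-06). Edem3 fell in VQ-D1 (−0.60), VQ-D2 (−0.49) and VQ-D4 at −0.62 (SE 0.133, edgeR adjusted p = 0.000451), with 310.5, 275, 263 and 288 CPM in VQ-D4 against 464, 343 and 471 CPM in Control. With VQ-D4 and Control alone in the fit, the tissue terms leave only the bone marrow library of VQ-D4 to compare. The log2 fold changes were then −0.50 for Edem3 and −0.85 for Spcs2. Edem1 rose in VQ-D5 (0.66) and VQ-D1 (0.43) and fell in VQ-D2 (−0.39).

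Mzb1 had the largest ratio of the highest to the lowest group mean CPM of the 43 genes, at 54.4. It encodes a lumenal co-chaperone of marginal zone B cells and plasma cells that aids immunoglobulin assembly. It lies on chromosome 18 from 35647265 to 35650266, and 57.2% of its exon length overlaps exons of the GENCODE gene SPATA24 on the same strand, so reads there could belong to either gene. It had 311, 389, 226 and 309 CPM in VQ-D1, 0.756, 2.01, 10.1 and 32.6 CPM in VQ-D4, 234, 323, 443 and 399.9 CPM in VQ-D2, 690.4, 559.8, 677 and 508 CPM in VQ-D5 and 14.8, 18.2, 16.3 and 14.3 CPM in t-VK12653, against 584, 525 and 744 CPM in Control. VQ-D4 and t-VK12653 libraries had at most 32.6 CPM, and the lowest library of any other group had 226 CPM. The log2 fold change was −6.11 (SE 0.658, edgeR adjusted p = 1.61e-06) in VQ-D4 and −5.39 (SE 0.543, edgeR adjusted p = 6.64e-07) in t-VK12653. In VQ-D5 it was not called (−0.35, edgeR adjusted p = 0.512), nor in VQ-D1 (−1.13, adjusted p = 0.0513). VQ-D2 was near the threshold, at −1.35 (SE 0.541, edgeR adjusted p = 0.0437), and its call ended under most alternatives that changed the libraries or terms of the fit. Ell2, an elongation factor that favours the secreted form of immunoglobulin mRNA, had 354, 362, 365 and 351 CPM in VQ-D1, 477, 457, 455 and 441 CPM in VQ-D4, 242, 250.5, 248 and 313 CPM in VQ-D2, 310.5, 307, 294 and 311 CPM in VQ-D5 and 398, 475, 351 and 423 CPM in t-VK12653, against 643, 401 and 695 CPM in Control. It fell in VQ-D2 at −1.18 (SE 0.166, edgeR adjusted p = 3.07e-06), VQ-D5 at −0.95 (SE 0.149, edgeR adjusted p = 9.11e-06), VQ-D1 (−0.71) and t-VK12653 (−0.51).

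With the donor line as the unit, the VQ genotype was set against Control by summing counts within each line, giving 4 sums against 3 Control libraries. Of the 43 genes, 8 were higher and 2 lower, in a comparison that called 23% of 13870 genes tested, 13.7% higher and 9.27% lower. The 23.3% of the 43 genes that were called is close to that background. Fkbp11 rose by 3.08 (SE 0.386, edgeR adjusted p = 0.0047), Ssr2 by 2.94 (SE 0.6, edgeR adjusted p = 0.0149), Ssr1 by 1.58 (SE 0.392, edgeR adjusted p = 0.0269) and Pdia6 by 1.51 (SE 0.281, edgeR adjusted p = 0.0111). P4hb, Pdia3, Canx and Sdf2l1 rose by 1.37, 1.09, 0.84 and 0.68. Dnajb9 fell, at −1.14 (SE 0.223, edgeR adjusted p = 0.0128), and so did Syvn1, at −0.62 (SE 0.186, edgeR adjusted p = 0.0489). Hspa5 (0.54) and the sensors Ern1 (−0.09), Atf6 (0.02) and Eif2ak3 (−0.15) were not called. The count fell to 2 without any 1 of the Control libraries, to 5 without VQ-D2, and to 5 with bone marrow alone, which also has no VQ-D2 library. It was 16 higher and 14 lower when coefficients of the 4 lines were averaged in the 23-library model. Without single Control libraries the Ssr2 values were 2.84 to 2.97 with edgeR adjusted p of 0.0634 to 0.07. The sums pool tissues while Control is bone marrow, so site and genotype cannot be told apart here, and neutrophil markers were higher in Control as given above.

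The 4 VQ lines were then set against t-VK12653, to compare MYC with mutant Nras and MYC alone. There were 21 genes higher in VQ and 11 lower, in a comparison that called 61.2% of all genes tested (29.6% higher, 31.6% lower) and 74.4% of the 43. The t-VK12653 side is 1 donor, so donor and genotype cannot be told apart. Myc was also higher in every t-VK12653 library than in any VQ library, and its part was not tested. Higher were 7 of the 9 chaperones of the BiP system and 7 of the 12 translocation genes. Ssr2 was higher by 2.12 (SE 0.113, edgeR adjusted p = 7.94e-13), Fkbp11 by 2.04 (SE 0.132, edgeR adjusted p = 3e-11), Calr by 1.59 (SE 0.0994, edgeR adjusted p = 9.18e-12) and Dnajc3 by 1.53 (SE 0.108, edgeR adjusted p = 6.5e-11). Hspa5 was higher by 0.87 (SE 0.104, edgeR adjusted p = 2.18e-07). For Hspa5, Calr, Dnajc3, Hyou1 and Fkbp11, and for others of the 43 such as Ssr2 and Pdia6, each VQ library lay above each t-VK12653 library. The share of all genes whose libraries separate in this way, in either direction, was not counted. Mzb1 had the highest value, 3.16 (SE 0.452, edgeR adjusted p = 1.96e-05), as the mean of lines that did not share it: VQ-D4 against t-VK12653 was −0.72 (SE 0.626, edgeR adjusted p = 0.367), while VQ-D1, VQ-D2 and VQ-D5 stood at 4.27, 4.04 and 5.04.

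Lower in VQ were Creld2, Pdia4, Ell2, Herpud1, Edem2, Edem3, Sel1l, Ssr4, Spcs2, Ern1 and Eif2ak3. Sel1l stood at −1.83 (SE 0.151, edgeR adjusted p = 6.4e-09) and Eif2ak3 at −1.26 (SE 0.0972, edgeR adjusted p = 2.7e-10), and for both genes every VQ library lay below every t-VK12653 library. Ern1 stood at −0.91 (SE 0.217, edgeR adjusted p = 0.00165), with VQ-D2 at −1.64, VQ-D5 at −1.62, VQ-D1 at 0.04 and VQ-D4 at −0.43. In bone marrow libraries alone the Ern1 call ended (−0.56, edgeR adjusted p = 0.0873). It also ended with counts summed per recipient number (−0.72, edgeR adjusted p = 0.145). Creld2 stood at −0.69 (SE 0.146, edgeR adjusted p = 0.000403) and had 621, 770.3, 548 and 525 CPM in VQ-D1, 1050.0, 865, 959 and 1171 CPM in VQ-D4, 309, 403, 489 and 613 CPM in VQ-D2, 459, 619.7, 527 and 654 CPM in VQ-D5 and 727, 975, 872 and 1258 CPM in t-VK12653, against 737, 503 and 625 CPM in Control. Its call also ended in bone marrow alone (−0.21, edgeR adjusted p = 0.364).

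**Figure D4:**
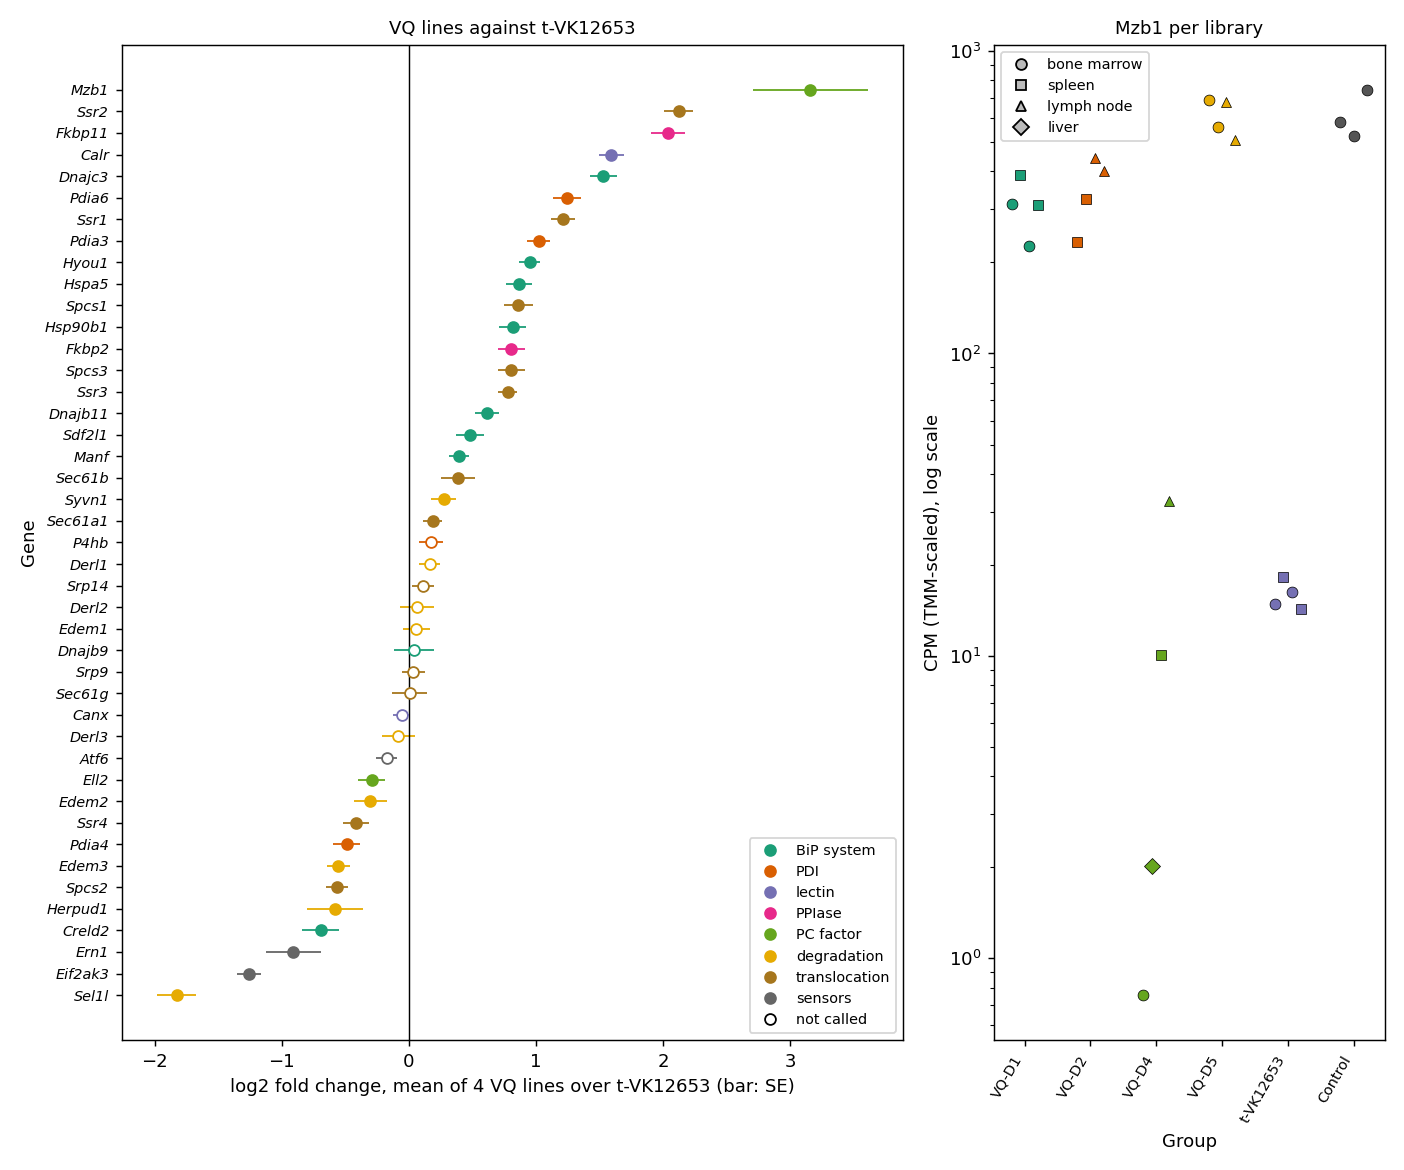
Left, log2 fold change of the mean of the 4 VQ lines over t-VK12653 (horizontal axis) for each of the 43 ER genes (vertical axis), with bars for the SE, colours for the role and open points for genes not called. Right, CPM of Mzb1 per library on a log scale by group: VQ-D4 and t-VK12653 sit at or below 32.6 CPM and all other groups at or above 226 CPM.

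The VQ lines carry the same alleles, and they were compared with each other to see how far donors differ. An F-test over the 4 lines called 40 of the 43 genes, in a comparison that called 80.6% of all genes tested. Not called were Dnajb11, Manf and Derl2. The largest F values belonged to Ssr3 (122.5), Ssr2 (119.8), Derl1 (89.5) and Ssr4 (83.1). VQ-D2 with VQ-D5 and VQ-D1 with VQ-D4 were then set against each other, a division known from earlier results of these data and so not independent. In all 4 pairs across it, 5 of the 43 genes were higher in VQ-D2 and VQ-D5 (Pdia3, Hspa5, Ssr1, Ssr2 and Calr), against 12.5% of all genes. In all 4 pairs 8 were lower in them (Fkbp2, Sel1l, Eif2ak3, Ssr4, Ern1, Derl1, Sdf2l1 and Pdia4), against 10.6% of all genes.

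In single pairs of VQ lines, each share of all genes is that of genes tested. VQ-D1 against VQ-D2 had 16 of the 43 higher and 9 lower (24.8% and 26.5% of all genes). VQ-D1 against VQ-D4 had 6 higher and 16 lower (20.4% and 20.8%), and VQ-D1 against VQ-D5 had 10 higher and 19 lower (28.8% and 29.7%). VQ-D2 against VQ-D4 had 9 higher and 22 lower (29.4% and 27.6%), and VQ-D4 against VQ-D5 had 16 higher and 18 lower (29.1% and 29.6%). VQ-D2 against VQ-D5 had 1 higher and 22 lower (18.6% and 20%), so within this pair nearly every called gene of the 43 was lower in VQ-D2. Pairwise values give the size of these differences. For Ssr2 the log2 fold change of VQ-D1 against VQ-D5 was −2.27 (SE 0.134, edgeR adjusted p = 4.68e-12), and that of VQ-D2 against VQ-D4 was 1.04 (SE 0.133, edgeR adjusted p = 7.7e-07). Calr stood at −1.22 (SE 0.12, edgeR adjusted p = 1.45e-08) for VQ-D1 against VQ-D5 and at 0.46 (SE 0.12, edgeR adjusted p = 0.00256) for VQ-D2 against VQ-D4. Ssr4 ran the other way, at 1.28 (SE 0.136, edgeR adjusted p = 4.57e-08) for VQ-D1 against VQ-D5 and −1.69 (SE 0.134, edgeR adjusted p = 7.27e-10) for VQ-D2 against VQ-D4. Fkbp2 had 1.21 (SE 0.136, edgeR adjusted p = 1.07e-07) for VQ-D1 against VQ-D5 and −1.56 (SE 0.134, edgeR adjusted p = 2.6e-09) for VQ-D2 against VQ-D4. On each side of this division the lines also differed. Herpud1 was lower in VQ-D1 than in VQ-D4, at −1.95 (SE 0.292, edgeR adjusted p = 5.81e-05) and in VQ-D2 than in VQ-D5, at −1.53 (SE 0.288, edgeR adjusted p = 0.000501). Sec61a1 was lower in VQ-D2 than in VQ-D5, at −1.05 (SE 0.0936, edgeR adjusted p = 1.24e-08). Fkbp11 was lower in VQ-D1 than in VQ-D4, at −1.68 (SE 0.153, edgeR adjusted p = 2.29e-08).

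No gene of the 43 was called between sites of growth. Spleen against bone marrow, within lines, called none of the 43 genes and 0% of all genes tested, and no member of the 43 had an unadjusted p under 0.05. DESeq2 called none either. Lymph node against bone marrow called none of the 43, and 0.0155% of all genes; 1 of the 43, Creld2, had an unadjusted p under 0.05, and DESeq2 called none. The median absolute log2 fold change of the 43 genes was 0.05 for spleen and 0.07 for lymph node, against 0.12 and 0.14 for all genes. A difference of the spleen effect between VQ-D1 and t-VK12653 was not called for any of the 43 (0% of all genes called), with 1, Sec61b, at an unadjusted p under 0.05. Without a filter on low counts, 2 of the 43 passed the threshold in lymph node, Creld2 (0.42) and Mzb1 (0.80).

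The liver library of VQ-D4 stood apart from the other 3 libraries of its line. With 1 library there is no test. It lay below all 3 for 27 of the 43 genes (62.8%), against 28% of all genes tested, and above all 3 for 3 genes, against 30.1% of all genes. The 3 were Ern1, with 934 CPM in liver against 243 to 327 CPM in the others, Herpud1, with 1598 CPM against 1033 to 1132 CPM, and Syvn1, with 349 CPM against 319 to 341 CPM. Ddit3, Xbp1 and Atf4 were above the other 3 libraries as well, at 55.9, 3262 and 855 CPM. Edem2 had 327 CPM in liver against 587 to 716 CPM, and Ssr2 had 215 CPM against 359.6 to 420.4 CPM. The 6 hepatocyte markers, all with reads in VQ-D4, summed to 42.2 CPM in liver against 3.24 to 7.04 CPM in the other 3, and the 7 endothelial and stromal markers to 749 CPM against 27.6 to 47.9 CPM. Their part in these values was not tested.

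Other genes of these pathways were read from lists that hold none of the 43, with no test of a list. Counts are against Control, where 27.5% to 31.2% of all genes tested were higher in a line and 26.9% to 32.5% lower. Several of the counts, in this and the next paragraphs, lie near those shares. Of 22 other ER folding genes, 11 were higher and 2 lower in VQ-D1, 15 and 1 in VQ-D4, 12 and 6 in VQ-D2, 13 and 3 in VQ-D5, and 9 and 4 in t-VK12653. Txndc5, a disulfide isomerase of plasma cells, fell in all 5 lines, with log2 fold changes of −1.74, −1.68, −1.13 and −1.20 from VQ-D1 up to VQ-D5 and −1.03 in t-VK12653. Ero1l, the oxidase that recharges disulfide isomerases, rose in the VQ lines by 1.28, 1.32, 1.55 and 1.51, from VQ-D1 up to VQ-D5. Pdia5 split the lines: its mean was 0 CPM in VQ-D1, 119.7 in VQ-D4, 0.219 in VQ-D2, 127 in VQ-D5 and 0.0848 in t-VK12653, against 5.88 CPM in Control. It rose by 4.36 (SE 0.292, edgeR adjusted p = 9.96e-10) in VQ-D4 and 4.28 (SE 0.275, edgeR adjusted p = 2.16e-10) in VQ-D5.

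Of 21 other translocation and N-glycosylation genes, 8 were higher and 7 lower in VQ-D1, 15 and 3 in VQ-D4, 11 and 5 in VQ-D2, 14 and 3 in VQ-D5, and 7 and 8 in t-VK12653. Ddost, a subunit of the oligosaccharyltransferase that adds N-glycans, rose by 1.62 (SE 0.161, edgeR adjusted p = 2.96e-08) in VQ-D4, 1.39 in VQ-D1 and 0.80 in t-VK12653. Srprb, a subunit of the receptor of the signal recognition particle, rose by 2.01 (SE 0.114, edgeR adjusted p = 2.19e-12) in VQ-D5 and 1.37 in VQ-D2. Ostc, another oligosaccharyltransferase subunit, was higher in VQ than in t-VK12653 by 1.59 (SE 0.099, edgeR adjusted p = 8.88e-12). Of 18 other degradation genes, 4 were higher and 10 lower in VQ-D1, 8 and 3 in VQ-D4, 1 and 12 in VQ-D2, 5 and 9 in VQ-D5, and 5 and 7 in t-VK12653. Erlec1, a lectin of degradation, rose by 1.98 (SE 0.181, edgeR adjusted p = 1.46e-08) in VQ-D4, 1.80 in VQ-D1 and 1.63 in t-VK12653 and fell in VQ-D5 (−0.82). Os9, a lectin with the same task, fell in VQ-D2 (−1.09) and VQ-D5 (−1.14).

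Of 13 other regulators of the unfolded protein response, 4 were higher and 6 lower in VQ-D1, 6 and 2 in VQ-D4, 3 and 7 in VQ-D2, 3 and 7 in VQ-D5, and 3 and 6 in t-VK12653. Chac1, a glutathione-degrading target of ATF4, averaged 32.2 CPM in VQ-D1, 315 in VQ-D4, 7.57 in VQ-D2, 2.66 in VQ-D5 and 5.21 in t-VK12653, against 37.0 CPM in Control. It rose in VQ-D4 by 2.83 (SE 0.609, edgeR adjusted p = 0.00108) and fell in VQ-D5, at −3.82 (SE 0.751, edgeR adjusted p = 0.000374). Ppp1r15a, which encodes the phosphatase subunit GADD34 that restores translation, fell in VQ-D2 (−2.17), VQ-D5 (−2.09) and VQ-D1 (−1.68). Mbtps2, a protease that cleaves ATF6, rose in VQ-D1 (1.44), VQ-D2 (1.43), VQ-D4 (1.25), VQ-D5 (1.05) and t-VK12653 (1.29).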

How the data were processed

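RNA was extracted with the RNeasy Micro kit and libraries were made with the SMARTer Stranded Total RNA-Seq Kit (Pico, v1), per the labels' protocols. The submitters' processing notes name STAR, featureCounts and DESeq2, and GRCm38/mm10; the sources used here give neither versions nor annotation nor strand setting. Each deposited table holds whole read counts per gene together with FPKM and TPM values that the authors computed, so TPM was used for levels between genes and FPKM for a check of their order. The deposited counts were tested with edgeR (version 4.0.16, with limma 3.58.1, in R 4.3.3): TMM scaling, filterByExpr with a minimum count of 10 and a minimum total of 15, and the robust quasi-likelihood F-test with terms for group and tissue over 23 libraries. The VQ genotype was set against Control on counts summed per line. P-values were adjusted by Benjamini-Hochberg over all genes tested, at a threshold of 0.05.

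Alternatives were RLE scaling, no filter, DESeq2 (1.42.0), no tissue term, a replicate block, bone marrow alone, counts summed per recipient number, only the groups compared, no abundant non-coding RNA, and leaving out each library or line. The tests were checked on simulated counts. The RNA Rn45s took 16.4% to 27.3% of counts in a library, with the highest shares in t-VK12653. Libraries of a group differed beyond counting noise, with a chi-square per degree of freedom of 4.57 to 22.3, so none was counted as a duplicate. The 43 genes and all lists were chosen with earlier results of these data known. By the rule for named genes, values per library are given for Hspa5, the 3 sensors and, in each comparison, up to 4 called members with the highest and 4 with the lowest log2 fold change (largest F among VQ lines). Members called in both directions, Xbp1, Atf4, Ddit3, Myc, Nras and up to 4 called genes per direction of each other list are also named.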

Additional observations from a re-analysis of the deposited data

Results flagged for a closer look

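In 12 of 215 groups of 4 libraries, 1 library stood far from the other 3 by Dixon's criterion, and chance alone gives about 1 in 20. In VQ-D4 the liver library was low for Dnajb11 (507 CPM, against 636 to 660.1 CPM in the other 3), Sdf2l1 (305 CPM, against 442 to 459 CPM), Manf (602 CPM, against 687 to 696 CPM) and Pdia4 (2778 CPM, against 3400 to 3527 CPM). It was high for Ern1, at 934 CPM against 243 to 327 CPM. In the same line bone marrow was high for Derl3, at 273 CPM against 217 to 224 CPM. In VQ-D5, replicate 4 was high for Hyou1 (1319 CPM, against 1181 to 1201 CPM) and low for Edem1 (2378 CPM, against 2801 to 2831 CPM), and replicate 3 was high for Pdia3 (1881 CPM, against 1734 to 1744 CPM). Edem1 was high in VQ-D1 replicate 2, at 2697 CPM against 2247 to 2259 CPM. Ell2 was high in VQ-D2 replicate 4, at 313 CPM against 242 to 250.5 CPM. Dnajc3 was high in t-VK12653 replicate 2, at 315 CPM against 294 to 296 CPM.

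For 15 genes called higher in some lines and lower in others, the lines farthest apart were compared with each other by edgeR. The log2 difference between VQ-D5 and t-VK12653 was 1.09 for Hspa5 (adjusted p = 1.71e-07), 1.29 for Hsp90b1 (2.25e-08), 1.19 for Hyou1 (1.82e-09) and 2.09 for Calr (2.45e-12). VQ-D4 was above t-VK12653 by 0.72 for Dnajb11 (4.15e-05) and 1.66 for Fkbp2 (2.07e-09), and VQ-D1 was above t-VK12653 by 1.78 for Dnajc3 (5.9e-11). Against VQ-D2, VQ-D4 was higher by 1.33 for Creld2 (1.07e-05), 1.85 for Edem2 (2.27e-08), 1.61 for Derl1 (3.36e-11) and 1.69 for Ssr4 (7.27e-10). VQ-D5 was above VQ-D2 by 1.04 for Edem1 (2.32e-06) and 1.08 for Srp14 (4.31e-08). The line t-VK12653 was above VQ-D5 by 2.53 for Sel1l (8.08e-09) and 1.79 for Eif2ak3 (1.85e-10). In each pair all 4 libraries count as replicates of 1 donor line. The genes and pairs were picked as extremes of these same data, so a low adjusted p was favoured in advance and is no independent support.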

How the results depend on the processing

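Leaving out 1 library at a time gave 25 to 28 of the 43 genes called in VQ-D1, 26 to 32 in VQ-D2, 20 to 29 in VQ-D4, 31 to 33 in VQ-D5 and 20 to 25 in t-VK12653, each against Control. It gave 29 to 33 for VQ against t-VK12653, 38 to 40 among VQ lines, and 0 for spleen and for lymph node. For the line sums against Control, leaving out a line or a Control library gave 2 to 12: 2 without Control replicate 1, 2 or 3, 5 without VQ-D2, 7 without VQ-D5, 10 without VQ-D1 and 12 without VQ-D4. Without a Control library the sums rest on 2 of them. The sums gave 5 in bone marrow alone, and averaging the 4 line coefficients of the 23-library model gave 30. VQ-D4 and Control alone gave 11 calls, and lymph node without the filter gave 2. The cause of the changes in the sums and in lymph node was not tested. RLE scaling moved the median of all genes by −0.11 for the sums and by less elsewhere, and changed the sign of no member called under either scaling. Of 2564 alternative values for members named in a comparison, 2492 kept direction and side of the threshold, 47 lost the call, 25 gained it and 0 reversed. Mzb1 in VQ-D2 was among those lost: −0.82 (edgeR adjusted p = 0.159) with no tissue term, and an adjusted p of 0.0502 to 0.126 without single libraries. Without VQ-D1 replicate 1, which had the highest neutrophil markers of any tumour library, and the liver library together, the counts were 26, 28, 25, 33 and 24 for the 5 lines in the order above, and 10 for the sums.

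With the replicate number as a block, the counts were 27, 31, 26, 32 and 23 for the 5 lines and 32 for VQ against t-VK12653. The numbers do not pair the samples: over 55 same-numbered pairs, deviations from group means correlated at −0.22 to 0.16, 5 pairs were above 0.1, and 8 of 23 libraries lay closest to their own number. DESeq2 gave 26, 34, 25, 33 and 22 calls for the lines, 33 for VQ against t-VK12653 and 12 for the sums. Depth limits the low genes most: the lowest count of a member in a library was 6.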

Other observations

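Genes for exit from the ER, the COPII coat and the retrieval receptors that lie downstream of folding, divided the lines. Of 19 such genes, 1 was higher and 11 lower in VQ-D1, 1 and 3 in VQ-D2, 7 and 7 in VQ-D4, 14 and 2 in VQ-D5, and 3 and 5 in t-VK12653, each against Control, where the share of all genes called was 54.3% to 63.8%. Kdelr3, a receptor that returns escaped chaperones to the ER, stood at 2.81 (SE 0.228, edgeR adjusted p = 1.51e-09) in VQ-D4 and 2.05 (SE 0.22, edgeR adjusted p = 4.65e-08) in VQ-D5 on the log2 scale, and at −1.08 in VQ-D1. Kdelr2, a receptor of the same family, stood at −1.35 (SE 0.108, edgeR adjusted p = 8.43e-10) in VQ-D1, −0.98 in VQ-D4 and 0.75 in VQ-D5. Preb, which loads the COPII GTPase, fell in VQ-D1 (−1.07), t-VK12653 (−0.67) and VQ-D4 and rose in VQ-D5 (0.59). Mcfd2, a partner of the cargo receptor LMAN1, rose in VQ-D5 at 1.25 (SE 0.165, edgeR adjusted p = 8.93e-07). In the line sums against Control 0 of the 19 were called.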
